A study of Homo sapiens with 60 samples.

Results

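The genes followed here belong to the Hippo pathway and act upstream of the coactivator YAP: NF2, LATS1, LATS2, STK3, STK4, SAV1, MOB1A, MOB1B, AMOT and WWC1. These 10 members were taken from a list of gene symbols rather than by their values, although earlier results of these data were known. All 10 were found among the 19712 genes of both deposited tables and among the 16583 genes that were tested. RNA had been sequenced from 4 EGFR-mutant non-small cell lung cancer lines, PC9, HCC827, H1975 (NCI-H1975) and HCC2935, in 5 arms with 3 biological replicates each, which gives 60 libraries in 20 groups. In the DMSO arm, parental cells were kept without drug for 21 days and then given the solvent for 24 h. In the acute arm, the same kind of culture received 500 nM osimertinib, an inhibitor of mutant EGFR, for 24 h. Drug-tolerant persisters (DTPs) were the cells that remained after 21 days in 500 nM osimertinib. For the short washout the drug was then removed for 24 h. For the long washout it was removed until growth resumed, which was 7 days in PC9, 3 days in H1975, 4 days in HCC827 and 10 days in HCC2935, so that this arm is of unequal length among the lines. Each line stands for 1 tumour, and the persisters are the survivors of a treatment rather than the whole starting culture.

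The Hippo pathway restrains growth through a chain of kinases. NF2 (merlin), WWC1 (KIBRA) and angiomotin (AMOT) sit at the cell membrane and junctions and recruit or activate the chain. The MST kinases STK3 and STK4, with the scaffold SAV1, phosphorylate the LATS kinases and their cofactors MOB1A and MOB1B, and LATS1 and LATS2 in turn phosphorylate YAP and its paralog TAZ, which keeps both out of the nucleus. In the nucleus YAP and TAZ bind TEAD factors and switch on genes that include LATS2 itself, as a feedback. In EGFR-mutant lung cancer, YAP and TEAD activity is known as a route by which cells outlast EGFR inhibitors. Most of this control is exerted on proteins, by phosphorylation and location, which RNA levels do not show.

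Promoter sequences are shown for AMOT, NF2 and LATS2, the 3 members with the largest differences after 24 h of drug averaged over the 4 lines, so that a known motif can be seen in its place. They come from RefSeq (GRCh38.p14), run from 250 bases before the transcript start to 30 bases after it, 5′ to 3′ on the gene's strand, and carry motif matches in capitals. The RefSeq promoter windows, which reach 50 bases past the start, were searched on both strands for the TEAD motif GGAATG, the AP-1 motif TGANTCA and the E2F motifs TTTCGCGC and TTTGGCGC.
LATS2, chr13:21061557-21061836, minus strand: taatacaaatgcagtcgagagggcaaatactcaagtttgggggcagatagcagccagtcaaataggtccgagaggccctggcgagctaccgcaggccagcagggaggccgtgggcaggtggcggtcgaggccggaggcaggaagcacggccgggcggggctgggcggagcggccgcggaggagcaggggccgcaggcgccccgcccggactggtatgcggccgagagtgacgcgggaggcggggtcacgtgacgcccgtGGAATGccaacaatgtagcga
NF2, chr22:29603306-29603585, plus strand, the more upstream of 2 starts: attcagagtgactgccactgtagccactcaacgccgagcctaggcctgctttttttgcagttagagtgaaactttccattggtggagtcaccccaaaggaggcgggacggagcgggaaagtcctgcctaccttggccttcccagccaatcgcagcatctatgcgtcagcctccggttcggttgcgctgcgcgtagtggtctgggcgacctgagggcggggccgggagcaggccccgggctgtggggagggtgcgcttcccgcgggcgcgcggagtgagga
AMOT, chrX:112840802-112841081, minus strand: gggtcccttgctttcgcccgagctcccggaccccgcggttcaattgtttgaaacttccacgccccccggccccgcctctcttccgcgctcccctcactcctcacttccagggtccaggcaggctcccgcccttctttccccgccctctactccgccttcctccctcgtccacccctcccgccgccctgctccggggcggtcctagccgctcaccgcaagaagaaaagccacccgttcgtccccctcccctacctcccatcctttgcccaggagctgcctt

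Among the 9 members with a RefSeq entry, LATS2 was the one with a TEAD match, which begins 10 bases into the transcript, and 14% of 35116 promoters of the same length held such a match. The NF2 and AMOT windows held none of the motifs. The open pattern TGANTCA matched 245 bases before one LATS1 start (TGAATCA) and 44 bases before the MOB1B start (TGATTCA). Of all promoters, 7.71% held such a match. Its central base was A in LATS1 and T in MOB1B. No member had an E2F match, which 1.15% of promoters held. A match describes letters in a window and does not show that a factor binds there.

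The libraries held 17.7 to 49.1 M estimated counts (median 30.1 M), with 34.7 to 47.1 in PC9, 17.7 to 25.1 in HCC827, 38.7 to 49.1 in H1975 and 18.6 to 25.6 in HCC2935. Apart from AMOT, no member fell below 219 counts in any library. The 5 epithelial markers EPCAM, CDH1, KRT8, KRT18 and KRT19 were over 1 TPM (a level scaled to transcript length and library total) in all libraries, and the summed level of 3 leukocyte markers (PTPRC, CD3E, CD14) lay between 0.0219 and 6.78 TPM. The summed level of 3 endothelial markers was 0.255 to 22.0 TPM and that of 4 fibroblast markers 5.02 to 207 TPM, with COL1A1 at 4.73 to 167 TPM. The fibroblast sum moved with the drug, from a mean of 7.60 TPM under DMSO to 15.4 in DTPs in PC9, from 7.20 to 33.4 in HCC827, from 37.3 to 74.8 in H1975 (139 after 24 h), where the DMSO and DTP ranges overlapped, and from 28.8 to 62.3 in HCC2935. The epithelial sum went from 6962 to 8097 TPM in PC9, from 6961 to 2964 in HCC827, from 2632 to 1932 in H1975 and from 10198 to 7447 in HCC2935. The part of these markers in the values of the members was not tested. On a line drawn across all genes from each cell line's DMSO libraries (0) to its DTPs (1), H1975 DMSO replicate 2 stood at 0.257 while the other two were at -0.0144 and 0.0158. H1975 acute replicate 1 stood at 0.645, against 0.498 and 0.452. Every count was therefore also taken without these 2 libraries. The long washout of PC9 was spread widely, with replicates at 0.577, 0.409 and 0.818. In bulk RNA, fewer cells of a kind and less RNA per cell cannot be told apart.

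In untreated cells the members were unequal between lines, and AMOT was the most unequal. Levels between genes are compared here in TPM, which allows for transcript length. Averaged over the 4 DMSO groups, MOB1A was at 70.1 and WWC1 at 69.2 TPM, NF2 at 44.6, SAV1 at 33.1, STK3 at 15.7, AMOT at 15.3, STK4 at 14.8, MOB1B at 9.57, LATS1 at 7.93 and LATS2 at 6.61 TPM. Under DMSO, AMOT was at 34.3 ± 7.80 TPM in HCC2935 (SD, n = 3) and at 24.6 ± 2.99 in PC9. It was at 2.16 ± 0.790 TPM in HCC827 and at 0.0261 ± 0.0151 in H1975. No 2 neighbours in this order overlapped in TPM. In CPM, the AMOT range of PC9 (84.2 to 107) lay within that of HCC2935 (81.1 to 119.6). NF2 was highest in H1975, at 91.8 ± 21.6 TPM, and did not overlap with HCC2935 (31.2 ± 5.01), while HCC2935, PC9 (29.6 ± 2.52) and HCC827 (25.8 ± 3.99) overlapped with their neighbours. In CPM, NF2 in PC9 (97.8 to 114) lay above HCC2935 (66.0 to 95.9). SAV1 was fully ordered, from 57.4 ± 4.98 TPM in HCC2935 to 35.5 ± 0.318 in HCC827, 25.7 ± 1.44 in H1975 and 13.8 ± 1.69 in PC9.

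PC9 had the most STK3, at 22.5 ± 1.01 TPM, with the other lines between 12.2 and 14.2 TPM and overlapping. STK4 was lowest in HCC2935 at 9.80 ± 0.280 TPM and overlapped among the others. LATS1 and MOB1A were highest in HCC2935, at 11.1 ± 0.427 and 90.9 ± 7.63 TPM, and MOB1B was highest in HCC827 at 13.1 ± 1.06 and lowest in PC9 at 6.06 ± 1.15 TPM. For MOB1A this held in TPM only. In CPM, PC9 (202 to 216) and HCC2935 (191 to 215) overlapped. WWC1 was lowest in H1975, at 42.6 ± 2.43 TPM. For LATS2, which lay between 5.42 and 7.93 TPM on average, every line overlapped with its neighbour in the order. By an F-test of the 4 DMSO groups on the counts, 10 of 10 members differed between lines, as did 89.3% of all genes.

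**Figure D1:**
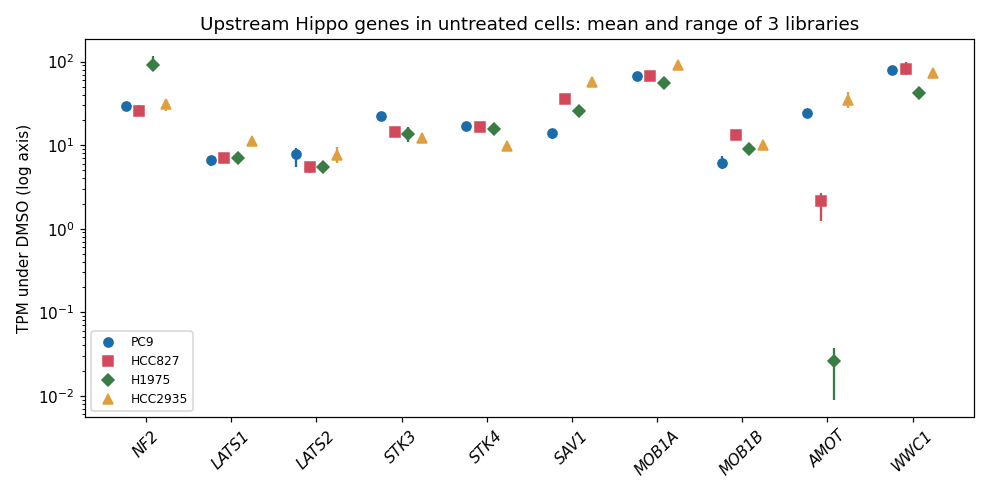
Level of each member under DMSO in TPM on a log axis, with the mean of 3 libraries as a symbol and their range as a bar, by cell line. AMOT spans from 34.3 TPM in HCC2935 to 0.0261 TPM in H1975, whereas LATS2 lies between 5.42 and 7.93 TPM in the 4 lines.

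Osimertinib raised AMOT and LATS2 and lowered several kinases and their partners, and the pattern depended on the line. Counts are given from here on as CPM, estimated counts scaled to the library total after TMM normalization, a gene is called when its edgeR quasi-likelihood p is under 0.05 after Benjamini-Hochberg adjustment over all genes tested, and a difference is a log2 fold change. After 24 h, averaged over the lines, 2 members rose (AMOT and LATS2) and 5 fell (NF2, STK4, MOB1A, SAV1 and LATS1). Of all genes, 35.2% rose and 29.2% fell. In DTPs, 3 members rose (AMOT, LATS2 and MOB1B) and 4 fell (MOB1A, SAV1, STK3 and NF2), against 34.5% and 30.5% of all genes. The median difference of the members was -0.17 after 24 h and -0.08 in DTPs, and that of all genes 0.10 and 0.08. Both comparisons use the same DMSO libraries.

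By line, 9 members were called after 24 h in PC9, 4 in HCC827, 3 in H1975 and 6 in HCC2935, where 56.2%, 40.8%, 45.7% and 42.5% of all genes were called. In DTPs 9, 6, 7 and 4 members were called in the same order of lines, against 59.2%, 45.5%, 45.5% and 48.2% of all genes. The share of members called was above that of all genes in PC9 in both arms, near or below it in HCC827 and H1975 after 24 h and in HCC2935 DTPs, and above it in the other 3 groups. In PC9 the same 3 members rose in both arms, AMOT, LATS2 and WWC1. Without the 2 H1975 libraries that stand apart, 8 members were called after 24 h and 6 in DTPs over the lines. NF2 was then no longer called in DTPs, and WWC1, with a difference of 0.19, was called after 24 h.

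**Figure D2:**
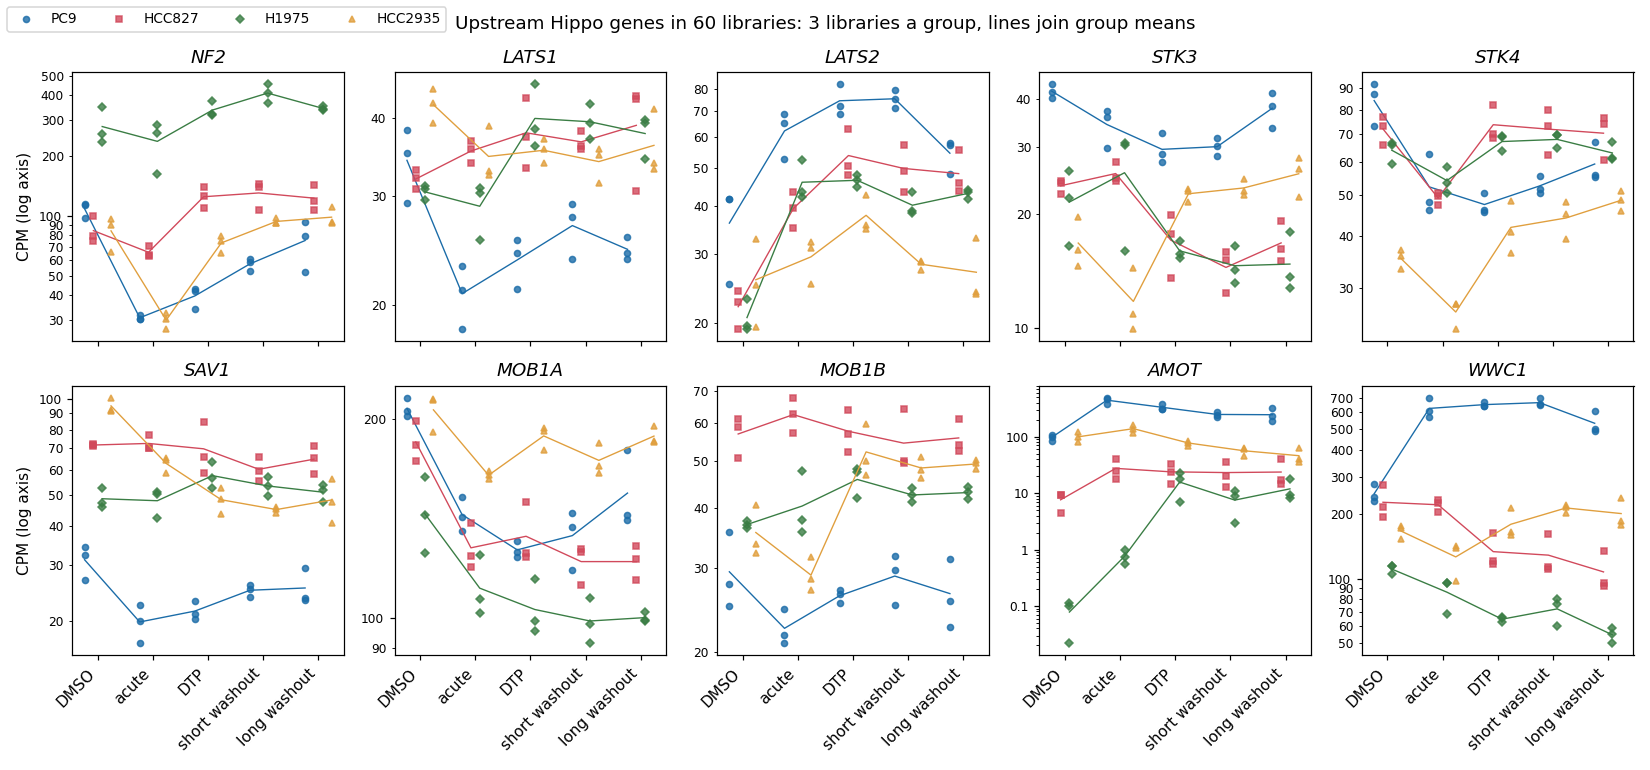
CPM of the 10 members on log axes in all 60 libraries, in 1 panel a gene, with a symbol for each library by cell line and lines joining the group means across the 5 arms. NF2 drops after 24 h in PC9 (97.8 to 114 CPM to 30.4 to 31.8 CPM) and HCC2935, and AMOT in H1975 climbs from at most 0.112 CPM under DMSO to 7.08 to 22.5 CPM in DTPs.

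NF2, the tumour suppressor that recruits LATS kinases to the membrane, fell sharply after 24 h in PC9 and HCC2935, and in DTPs it stayed low in PC9 alone among the lines. The gene lies at chr22:29603556-29698598 (GRCh38, GENCODE 29). In PC9 it was at 113, 114 and 97.8 CPM under DMSO, at 30.4, 31.8 and 30.5 CPM after 24 h and at 43.0, 34.4 and 41.9 CPM in DTPs. The 3 ranges were apart from each other. The difference from DMSO was -1.81 (standard error 0.17, edgeR adjusted p = 2.47e-12) after 24 h, a level 3.51-fold lower, and -1.45 (standard error 0.17, edgeR adjusted p = 6.33e-10) in DTPs. In HCC2935 NF2 went from 90.4, 95.9 and 66.0 CPM under DMSO to 32.6, 30.6 and 27.1 CPM after 24 h, and stood at 79.3, 65.5 and 74.8 CPM in DTPs. The acute range lay wholly below the DMSO range and the DTP range overlapped with it. The differences were -1.48 (standard error 0.17, edgeR adjusted p = 1.82e-09) and -0.20 (95% interval -0.54 to 0.14, not called).

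HCC827 went the other way in DTPs. There NF2 was at 78.9, 99.4 and 74.7 CPM under DMSO, at 62.7, 63.8 and 70.6 CPM after 24 h and at 125, 109 and 139.6 CPM in DTPs. All 3 DTP libraries were above all 3 DMSO libraries, with a difference of 0.56 (standard error 0.17, edgeR adjusted p = 0.00488), and the acute difference of -0.36 was not called (adjusted p = 0.0827), although the ranges did not overlap and the libraries of the 2 arms alone gave a call (-0.37, adjusted p = 0.0288). H1975, where NF2 is most abundant, had 235, 348 and 256 CPM under DMSO, 285, 261 and 162 CPM after 24 h and 321, 375 and 318 CPM in DTPs. Neither difference was called. The DMSO library at 348 CPM is replicate 2, which stands apart, and without it NF2 was called in H1975 DTPs, with a difference of 0.48 (adjusted p = 0.0261). The difference in DTPs averaged over the lines, -0.20 (adjusted p = 0.0295), joins lines of opposite direction. It was lost when any of 7 libraries was left out: H1975 DMSO replicate 2 (-0.14, adjusted p = 0.125), HCC2935 DMSO replicates 1 and 2, HCC2935 DTP replicate 2, HCC827 DMSO replicate 2, HCC827 DTP replicate 2 and PC9 DTP replicate 2. It was also lost under 9 other settings, every one tried except the replicate block, down to -0.07 (limma on log2(TPM + 1), adjusted p = 0.431).

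AMOT, a junction scaffold that binds YAP and activates LATS kinases, rose after 24 h in PC9, HCC827 and H1975 and stayed up in their DTPs. It lies at chrX:112774503-112840815. In PC9 it was at 99.9, 107 and 84.2 CPM under DMSO, at 486, 379 and 463 CPM after 24 h and at 313, 375 and 306 CPM in DTPs. In HCC827 the values were 9.29, 4.44 and 9.07 CPM, then 17.7, 40.3 and 24.2 CPM, then 33.1, 14.7 and 23.6 CPM. In both lines all drug-treated libraries were above all DMSO libraries, with differences of 2.19 (standard error 0.38) and 1.85 (standard error 0.41) after 24 h and of 1.77 and 1.64 in DTPs, each called. HCC2935 had 97.1, 81.1 and 119.6 CPM under DMSO, 136, 116 and 164 CPM after 24 h and 84.5, 78.5 and 68.2 CPM in DTPs. There neither difference was called, at 0.48 (95% interval -0.25 to 1.22) and -0.36 (95% interval -1.10 to 0.37). The libraries of the 2 arms alone gave a call of the first (0.47, adjusted p = 0.0413).

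The largest difference of any member was that of AMOT in H1975. The 3 DMSO libraries held 5.36, 5.32 and 1.34 estimated counts, at most 0.112 CPM, which is near the floor of detection. After 24 h AMOT was at 0.744, 0.977 and 0.555 CPM and in DTPs at 17.5, 7.08 and 22.5 CPM. The groups did not overlap. The difference was 3.21 after 24 h (95% interval 1.31 to 5.10) and 7.56 in DTPs (95% interval 6.20 to 8.93, edgeR adjusted p = 2.04e-12), and its exact size rests on the few counts under DMSO. On the scale of log2(TPM + 1) the acute difference was 0.25 and was not called (limma adjusted p = 0.602). Even in DTPs, H1975 stayed below the 68.2 to 84.5 CPM of HCC2935. In the mean over the lines, 1.93 after 24 h and 2.65 in DTPs, H1975 has the largest share.

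WWC1, a scaffold that works with NF2, moved in opposite directions in different lines. It lies at chr5:168291651-168472303. In PC9 it rose from 277, 239 and 232 CPM under DMSO to 567, 699 and 607 CPM after 24 h and 643, 667 and 641 CPM in DTPs. The differences were 1.33 (standard error 0.16, edgeR adjusted p = 9.75e-10) and 1.38 (standard error 0.16, edgeR adjusted p = 3.51e-10). In HCC827 it was at 215, 274 and 193 CPM, then at 226, 205 and 233 CPM, and fell to 163, 121 and 116 CPM in DTPs. In H1975 the values were 105, 114 and 114 CPM, then 68.0, 95.4 and 95.9 CPM, then 65.2, 65.8 and 62.7 CPM. The DTPs of both lines lay below all their DMSO libraries, with differences of -0.77 and -0.78, both called. In HCC2935 it was at 172, 176 and 154 CPM, then 139, 143 and 97.3 CPM, then 213, 159 and 166 CPM. The acute difference there of -0.40 (adjusted p = 0.0334) was lost without DMSO replicate 1 (adjusted p = 0.0813) or 2 (0.0985) or acute replicate 3 (-0.22, adjusted p = 0.334), and also under RLE scaling (-0.37), scaling by depth alone (-0.35) and with at least 10 counts in every library (-0.33). In H1975 the acute difference of -0.36 was not called, but was without acute replicate 2 (-0.44, adjusted p = 0.0433) or 3 (-0.44, adjusted p = 0.0422). Averaged over the lines, WWC1 differed by 0.13 and -0.01 and was not called. After 24 h it was called without HCC2935 acute replicate 3 (0.19, adjusted p = 0.0307), with at least 10 counts in every library (0.21, adjusted p = 0.0122) and without the 2 H1975 libraries (0.19, adjusted p = 0.0373).

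Of the MST kinases, STK4 fell after 24 h and STK3 mostly did not. STK4 (MST1), at chr20:44966474-45079959, went in PC9 from 73.2, 87.2 and 92.2 CPM to 46.1, 62.7 and 48.3 CPM after 24 h and 50.7, 45.6 and 46.2 CPM in DTPs. In HCC827 it went from 73.1, 76.9 and 66.1 CPM to 47.4, 50.5 and 49.7 CPM and then stood at 70.1, 82.3 and 68.7 CPM. In HCC2935 it went from 35.8, 37.0 and 33.2 CPM to 23.9, 27.5 and 27.5 CPM and then to 48.5, 40.8 and 36.4 CPM. The acute differences were -0.68, -0.55 and -0.43, all called. In H1975 the difference was -0.24 (adjusted p = 0.0659), and -0.30 (adjusted p = 0.045) without acute replicate 1. In DTPs STK4 stayed low in PC9 (-0.83, edgeR adjusted p = 1.22e-08) and was not called in the other lines, where differences ran from 0.03 to 0.24. Without HCC2935 DTP replicate 3 the one in HCC2935 was 0.34 and called (adjusted p = 0.0199). That difference was also called under 6 other settings, among them DESeq2 (0.26, adjusted p = 0.042) and limma on the deposited log2 TPM (0.40, adjusted p = 0.0033).

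STK3 (MST2), at chr8:98371228-98942827, was called after 24 h in HCC2935 alone, where it went from 16.1, 19.6 and 14.6 CPM to 10.9, 14.4 and 9.95 CPM (-0.51, adjusted p = 0.0157). The call was lost without DMSO replicate 2 (-0.38), acute replicate 1 (-0.46) or acute replicate 3 (-0.37). In PC9 the acute libraries (29.8 to 37.2 CPM) lay below those of DMSO (40.2 to 43.8 CPM). The difference there of -0.29 was not called (edgeR adjusted p = 0.136). With the libraries of the 2 arms alone it was called (-0.30, edgeR adjusted p = 0.0263). In DTPs STK3 was lower in 3 lines and higher in HCC2935. It went from 40.2, 41.9 and 43.8 to 27.3, 32.6 and 28.7 CPM in PC9, from 22.5, 24.5 and 24.1 to 19.9, 17.7 and 13.6 CPM in HCC827, and from 25.9, 16.4 and 22.1 to 15.6, 17.0 and 15.3 CPM in H1975. In HCC2935 it reached 23.2, 23.0 and 21.5 CPM. The differences of -0.51, -0.48, -0.43 and 0.43 were all called, although the ranges in H1975 overlapped. Several rest on single libraries or on the setting. Scaling by depth alone ended the calls in PC9 (-0.34, adjusted p = 0.0746) and HCC827 (-0.40, adjusted p = 0.0592), and the libraries of the 2 arms alone ended those in HCC827 (-0.44, adjusted p = 0.083) and H1975 (-0.44, adjusted p = 0.0728). The one in HCC827 was lost without DMSO replicate 2 (-0.45) or DTP replicate 3 (-0.33). The one in H1975 was lost without DMSO replicate 1 (-0.25), DMSO replicate 3 (-0.39), DTP replicate 1 (-0.41) or DTP replicate 3 (-0.39), and the one in HCC2935 without DMSO replicate 1 (0.40), DMSO replicate 3 (0.36), DTP replicate 1 (0.41) or DTP replicate 2 (0.42). On the deposited log2 TPM the difference in PC9 was -0.24 (limma adjusted p = 0.248) and the mean over lines was -0.13 and not called (limma adjusted p = 0.207). In PC9 DTPs every member, not STK3 alone, stood higher against DMSO in log2 TPM than in the counts. MOB1B, for example, differed by -0.17 in the counts and went from 2.59 to 2.71 in mean log2 TPM. The reason was not tested. In H1975 acute replicate 1, which stands apart, STK3 lay below the 30.3 and 30.6 CPM of the other two, at a level near that of DTPs, and without it the acute difference there was 0.50 (adjusted p = 0.00821).

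SAV1, the scaffold that pairs with the MST kinases, fell in PC9 and HCC2935. It lies at chr14:50632058-50668331. In HCC2935 it went from 91.9, 92.5 and 101 CPM under DMSO to 64.2, 65.3 and 58.7 CPM after 24 h and 52.6, 48.5 and 43.6 CPM in DTPs. All 3 groups were apart, with differences from DMSO of -0.60 (standard error 0.12) and -0.98 (standard error 0.12, edgeR adjusted p = 2.03e-09). In PC9, where SAV1 is lowest, it went from 27.0, 34.3 and 32.4 CPM to 17.1, 22.6 and 20.1 CPM and 23.2, 20.3 and 21.1 CPM, with differences of -0.65 and -0.54, both called. HCC827 and H1975 had differences of 0.02 and -0.02 after 24 h and -0.04 and 0.24 in DTPs, none called. Without H1975 DMSO replicate 3 the DTP difference in that line was 0.31 (adjusted p = 0.0462), and DESeq2 called it too (0.26, adjusted p = 0.0464). Of the 31-base stretches of the SAV1 transcripts, 21.3% also occur in other genes, and 14.3% in ATL1, which overlaps it on the opposite strand. The sources used here do not say whether strand was used in counting, so reads from these stretches cannot be told apart. For the other members the share was at most 6.21%.

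LATS2 was higher in the DTPs of every line, and LATS1 was not. LATS2, at chr13:20973032-21061547, is the kinase whose gene carries the TEAD match shown at the start. In PC9 it went from 41.5, 41.6 and 25.2 CPM under DMSO to 52.9, 65.3 and 68.8 CPM after 24 h and 72.3, 69.1 and 82.3 CPM in DTPs. In HCC827 it went from 22.6, 24.1 and 19.2 CPM to 43.5, 35.1 and 39.4 CPM and 47.9, 50.7 and 63.1 CPM. In H1975 it went from 19.3, 22.9 and 19.6 CPM to 42.1, 52.6 and 43.3 CPM and 48.1, 46.7 and 44.8 CPM. Every treated library of these 3 lines was above every DMSO library of its line. The acute differences were 0.79, 0.84 and 1.16 and those of DTPs 1.05, 1.29 and 1.18, all called. In HCC2935 LATS2 was at 32.9, 25.0 and 19.5 CPM, then at 31.2, 32.2 and 25.2 CPM, which overlapped, and at 42.7, 35.8 and 34.9 CPM in DTPs, which did not. There the acute difference was 0.19 (95% interval -0.13 to 0.52) and that of DTPs 0.55 (standard error 0.16, edgeR adjusted p = 0.00344). Averaged over the lines LATS2 was 1.68-fold higher after 24 h (edgeR adjusted p = 1.78e-11) and 2.02-fold higher in DTPs (edgeR adjusted p = 1.87e-15), and no alternative or left-out library ended either call.

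LATS1, its paralog, at chr6:149658153-149718256, fell in PC9, from 29.2, 35.2 and 38.2 CPM to 23.1, 18.3 and 21.1 CPM after 24 h and 25.4, 21.2 and 24.2 CPM in DTPs. The differences were -0.72 (standard error 0.12) and -0.54 (standard error 0.12), both called. On the deposited log2 TPM the one in DTPs was -0.26 and not called (limma adjusted p = 0.103). In H1975 LATS1 was higher in DTPs, at 36.1, 45.4 and 38.5 CPM against 29.5, 30.7 and 31.1 CPM under DMSO, a difference of 0.39 (adjusted p = 0.00442) that became 0.29 (adjusted p = 0.0551) without DTP replicate 2. The remaining differences of LATS1 in the 2 arms lay between -0.28 and 0.25 and were not called. Without HCC827 DTP replicate 3 the DTP difference in that line was 0.34 (adjusted p = 0.028), DESeq2 called it in all libraries (0.29, adjusted p = 0.0367), and without HCC2935 acute replicate 3 the acute one in HCC2935 was -0.33 (adjusted p = 0.0407).

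Of the LATS cofactors, MOB1A fell in every line after 24 h and MOB1B did not. MOB1A lies at chr2:74152528-74178898. It went from 216, 202 and 206 CPM to 135, 153 and 142 CPM in PC9, from 183, 199 and 173 CPM to 124, 119 and 139 CPM in HCC827, from 163, 125 and 143 CPM to 102, 107 and 124 CPM in H1975, and from 215, 191 and 214 CPM to 164, 162 and 167 CPM in HCC2935. In each line all acute libraries were below all DMSO libraries. The differences of -0.54, -0.53, -0.38 and -0.33 were called, and MOB1A was the one member called in the same direction in all 4 lines after 24 h. In DTPs it was at 126, 131 and 124 CPM in PC9, at 124, 150.1 and 125 CPM in HCC827, at 98.9, 114 and 95.6 CPM in H1975 and at 194, 192 and 179.9 CPM in HCC2935. The first 3 differences, -0.71, -0.47 and -0.48, were called, and the one in HCC2935, -0.13 (95% interval -0.32 to 0.06), was not.

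MOB1B, the close relative of MOB1A at chr4:70902326-71022449, fell after 24 h in PC9 only, from 24.9, 35.6 and 27.7 CPM to 20.9, 24.6 and 21.7 CPM. The call (-0.39, adjusted p = 0.00601) was lost without DMSO replicate 2 (-0.23, adjusted p = 0.133). In HCC2935, at 40.6, 32.2 and 33.7 CPM under DMSO, it was at 31.5, 27.0 and 28.3 CPM after 24 h and rose to 59.9, 50.1 and 46.8 CPM in DTPs (0.56, standard error 0.12, edgeR adjusted p = 0.000199). The acute difference of -0.29 there was called only without DMSO replicate 2 (-0.36, adjusted p = 0.0359) or acute replicate 1 (-0.36, adjusted p = 0.0372). In H1975 it went from 36.3, 37.6 and 36.8 CPM to 48.0, 47.4 and 41.9 CPM in DTPs (0.31, adjusted p = 0.0319), which was lost when DMSO replicate 1 or 3 or DTP replicate 1 or 2 was left out (0.28 to 0.32), with scaling by depth alone (0.29) and by limma on the deposited log2 TPM (0.28). Without H1975 acute replicate 1 the mean acute difference over the lines, -0.11, became -0.14 (adjusted p = 0.0403). In DTPs of PC9 (-0.17) and HCC827 (0.02) MOB1B was not called. Its mean difference in DTPs over the lines, 0.18, was not called with the libraries of the 2 arms alone (0.17, edgeR adjusted p = 0.110).

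**Figure D3:**
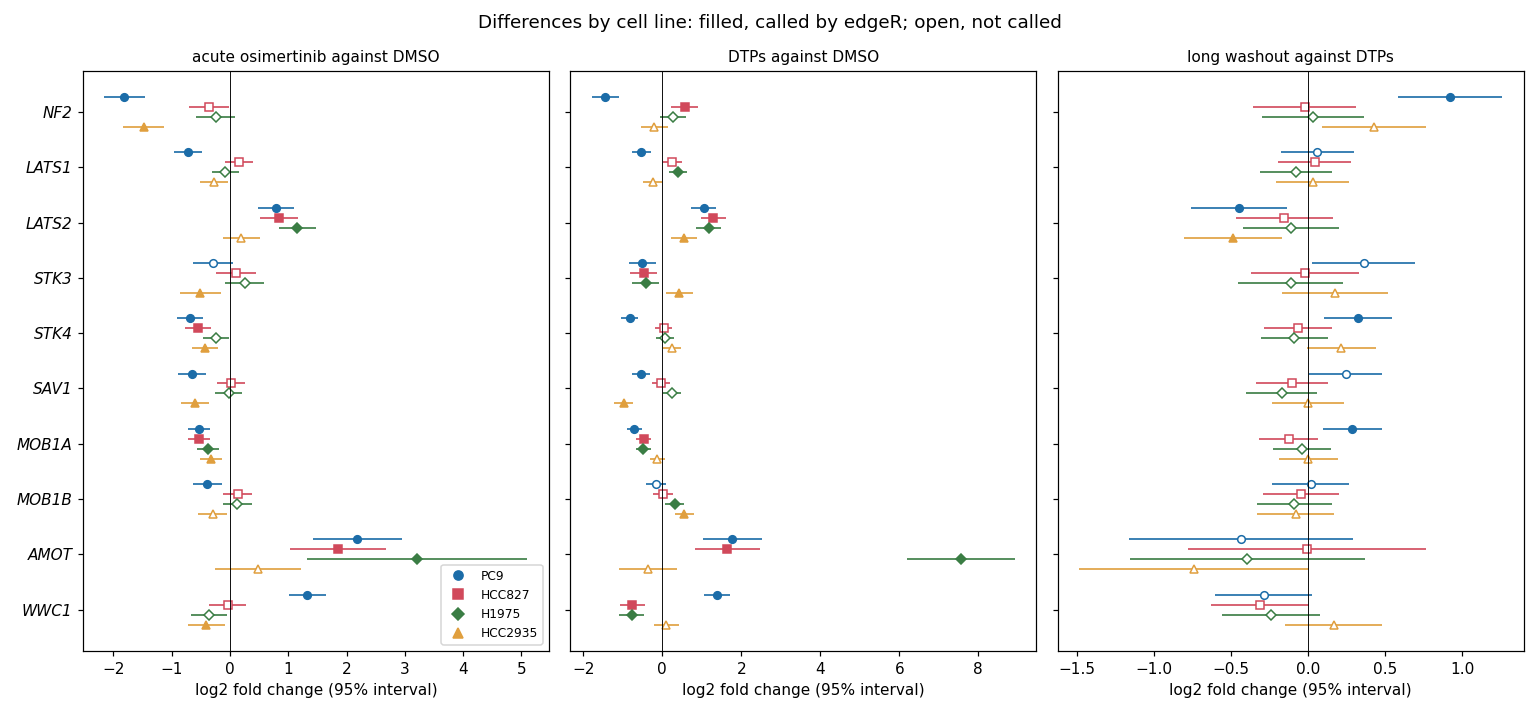
Log2 fold changes of the 10 members in each cell line with 95% intervals, for acute osimertinib and DTPs against DMSO and for the long washout against DTPs, with filled symbols where edgeR called the difference. LATS2 lies to the right of 0 in all lines in DTPs, WWC1 is at 1.38 in PC9 and at -0.77 and -0.78 in HCC827 and H1975, and the scale of the panels differs.

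Whether the lines responded unequally was tested directly, with an F-test of equal response in the 4 lines. After 24 h the response differed between lines for 8 of 10 members, against 41.4% of all genes. The exceptions were STK4 (edgeR adjusted p = 0.0841) and MOB1A (edgeR adjusted p = 0.400). For DTPs the response of 10 of 10 members differed, against 63.9% of all genes. The smallest adjusted p-values in DTPs were those of WWC1 (2.53e-11), AMOT (6.15e-10) and NF2 (4.19e-09).

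One day without drug moved few members, and the share of members called was near that of all genes. In the short washout, NF2 was the one member called over the lines, 0.31 higher than in DTPs (standard error 0.08, edgeR adjusted p = 0.0104), against 7.56% of all genes that rose and 5.03% that fell. It was at 60.8, 58.5 and 53.3 CPM in PC9, above all 3 DTP libraries, at 139, 107 and 144 CPM in HCC827, at 456, 412 and 365 CPM in H1975 and at 91.9, 92.4 and 97.0 CPM in HCC2935. In single lines no member was called, with NF2 in PC9 at 0.53 (adjusted p = 0.0598). Of all genes, 3.64% were called in PC9, 0% in HCC827, 0.374% in H1975 and 3.11% in HCC2935. In HCC827, where edgeR called 0 genes, 660 had an unadjusted p under 0.05 and DESeq2 called 2. At an unadjusted p under 0.05 the members called in single lines would be 1 in PC9, 0 in HCC827, 1 in H1975 and 2 in HCC2935, and DESeq2 called 1, NF2 in PC9 (adjusted p = 0.038). How many genes were called depended on the model. In PC9 it was 603 here, 1048 by DESeq2 and 3221 with the libraries of its 2 arms alone, and in H1975 it was 62, 268 and 0. Between DTP and short washout libraries of the same number, deviations were positively correlated in HCC827 and H1975, with correlations of 0.407, 0.161 and 0.239 and of 0.0977, 0.250 and 0.205. With the number as a replicate block in these libraries, a setting chosen after seeing the data, 2 members were called over the lines, NF2 (0.31), which was called without the block too, and AMOT (-0.51, adjusted p = 0.012), and 2 in single lines, NF2 in PC9 (0.53, adjusted p = 0.0454) and AMOT in H1975 (-1.09, adjusted p = 0.0443). AMOT had a mean difference of -0.49 (adjusted p = 0.0721), which was called without H1975 DTP replicate 2 (-0.58), H1975 short washout replicate 1 (-0.58), HCC827 DTP replicate 2 (-0.56) or HCC827 short washout replicate 1 (-0.61). AMOT in H1975, at 10.7, 2.96 and 8.86 CPM, was also called without that DTP library (-1.41, adjusted p = 0.0371).

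In the long washout, PC9 was the line with the most members called, and also the line with the most called among all genes. Averaged over the lines NF2 was 0.34 higher than in DTPs (edgeR adjusted p = 0.00393) and LATS2 was lower, at -0.30 (edgeR adjusted p = 0.0059), against 9.55% of all genes that rose and 6.09% that fell. The mean of NF2 joins 0.92 in PC9 and 0.43 in HCC2935 with -0.02 in HCC827 and 0.03 in H1975. Its call was lost with the libraries of the 2 arms alone (0.34, edgeR adjusted p = 0.089). Without HCC827 long washout replicate 3, AMOT (-0.55) and WWC1 (-0.22) were called as well. In PC9 4 members were called, against 28.7% of all genes: NF2 (0.92, edgeR adjusted p = 7.06e-05), STK4 (0.32) and MOB1A (0.29) rose and LATS2 (-0.45) fell. NF2 in PC9 was at 79.7, 93.7 and 52.4 CPM, all above the DTPs, and the order of the replicates is that of their place between DTPs and DMSO given before (0.577, 0.409 and 0.818). Without PC9 long washout replicate 2, the calls of STK4 (0.23), MOB1A (0.16) and LATS2 (-0.37) in PC9 were lost, as they were without DTP replicate 3 (0.30, 0.27 and -0.37), and STK4 also without DTP replicate 2 (0.29). Limma lost STK4 and MOB1A on the deposited log2 TPM (0.22 and 0.18) and on log2(TPM + 1) (0.21 and 0.18). The libraries of the 2 arms alone lost both as well (0.33 and 0.30). STK4 was also lost with at least 10 counts in every library (0.26). In HCC2935 LATS2 was called (-0.49, adjusted p = 0.038), at 24.1, 33.1 and 23.7 CPM, against 10.3% of all genes. That call was lost without long washout replicate 1 (-0.41) or 3 (-0.40) or DTP replicate 1 (-0.39) or 2 (-0.53). It was also lost with the libraries of the 2 arms alone (-0.50, edgeR adjusted p = 0.103). No member was called in HCC827 or H1975, where 0% and 0.0362% of genes were. In HCC827, where edgeR called 0 genes, 1008 had an unadjusted p under 0.05, DESeq2 called 11, and no member had an unadjusted p under 0.05.

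Against DMSO, the long washout differed in 5 members over the lines, a share not above that of all genes. AMOT (2.26) and LATS2 (0.72) were higher and MOB1A (-0.42), SAV1 (-0.34) and WWC1 (-0.18) lower, against 29.5% of genes that were higher and 28% that were lower. The mean of WWC1 joins lines of opposite direction. All its libraries were above those of DMSO in PC9 (mean 532 against 249 CPM) and HCC2935 (201 against 167 CPM). All were below in HCC827 (107 against 227 CPM) and H1975 (54.6 against 111 CPM). The call of WWC1 (adjusted p = 0.0397) was lost under 9 other settings, with values of -0.19 to -0.10, and without any of 13 single libraries, with values of -0.18 to -0.15. By line 8 members were called in PC9, 7 in HCC827, 6 in H1975 and 5 in HCC2935, where 35.3%, 44.4%, 47.3% and 39.8% of all genes were. NF2 was lower than under DMSO in PC9 (-0.53, adjusted p = 0.0106) and higher in HCC827 (0.54, adjusted p = 0.00713). The first was lost without PC9 long washout replicate 3 (-0.32, adjusted p = 0.18) and the second without HCC827 long washout replicate 3 (0.42, adjusted p = 0.0638). The one in PC9 was also lost with the libraries of the 2 arms alone (-0.51, edgeR adjusted p = 0.0755). Limma lost it too, on the deposited log2 TPM (-0.39, adjusted p = 0.058) and on log2(TPM + 1) (-0.37, adjusted p = 0.0635). In H1975 NF2 was at 337, 343 and 354 CPM, a difference of 0.30 that was called without DMSO replicate 2 (0.51, adjusted p = 0.0173). AMOT in H1975 remained at 8.31 CPM or more in all 3 libraries, a difference of 7.17 from DMSO (standard error 0.68). In HCC2935 AMOT was lower, at 63.4, 34.9 and 39.7 CPM (-1.11, adjusted p = 0.0146), which was lost without DMSO replicate 3 (-0.94) or long washout replicate 2 (-0.94) or 3 (-1.01). Limma on the deposited log2 TPM lost that call as well (-1.03, adjusted p = 0.0556).

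The other genes of the pathway, in lists chosen by function, give the setting of these members. Beside their counts stand the shares of all genes given before, 35.2% higher and 29.2% lower after 24 h and 34.5% and 30.5% in DTPs. Among 29 other upstream regulators, 14 rose and 9 fell after 24 h and 12 rose and 9 fell in DTPs, over the lines, with medians of 0.18 and 0.03, and in DTPs these shares were near those of all genes. The highest in DTPs were the giant cadherin FAT4 (3.23) and the LIM protein WTIP (1.51), and the lowest the kinases MAP4K4 (-0.73) and TAOK3 (-0.53), which can phosphorylate LATS or MST kinases. FAT4 was called in PC9 (5.64), H1975 (2.49) and HCC2935 (4.39) and was at 0.42 in HCC827. Of 14 genes of STRIPAK, the phosphatase complex that switches MST kinases off, 2 rose and 10 fell in both arms, with medians of -0.31 and -0.22. The lowest in DTPs were STRIP2 (-1.11) and MOB4 (-0.53), and CTTNBP2NL (0.64) was higher.

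Of 7 nuclear effectors, 4 rose and 2 fell after 24 h and 3 rose and 2 fell in DTPs. The shares in DTPs were near those of all genes, 34.5% higher and 30.5% lower. TEAD2 (0.59) and TEAD1 (0.47) were highest and WWTR1 (-0.63), which encodes TAZ, and TEAD4 (-0.46) were lowest in DTPs. YAP1, singled out here after its values were seen, differed by -0.02 in DTPs over the lines and was not called. Of 20 target genes of YAP and TAZ found in the files (of 21 listed), 10 rose and 6 fell after 24 h, with a median of 0.32, and 16 rose and 3 fell in DTPs, with a median of 0.98 against 0.08 for all genes. CCN2 (3.50) and ANKRD1 (3.35), standard readouts of YAP activity, were highest and NT5E (-2.28) and FJX1 (-0.45) lowest. CCN2 rose in DTPs of PC9 (4.08), HCC827 (4.33), H1975 (2.40) and HCC2935 (3.17). ANKRD1 rose in HCC827 (5.82), H1975 (3.56) and HCC2935 (4.15) and was at -0.15 in PC9. Many of these targets also respond to other signals, and 2 of them, AMOTL2 and PTPN14, are in the list of upstream regulators too.

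**Figure D4:**
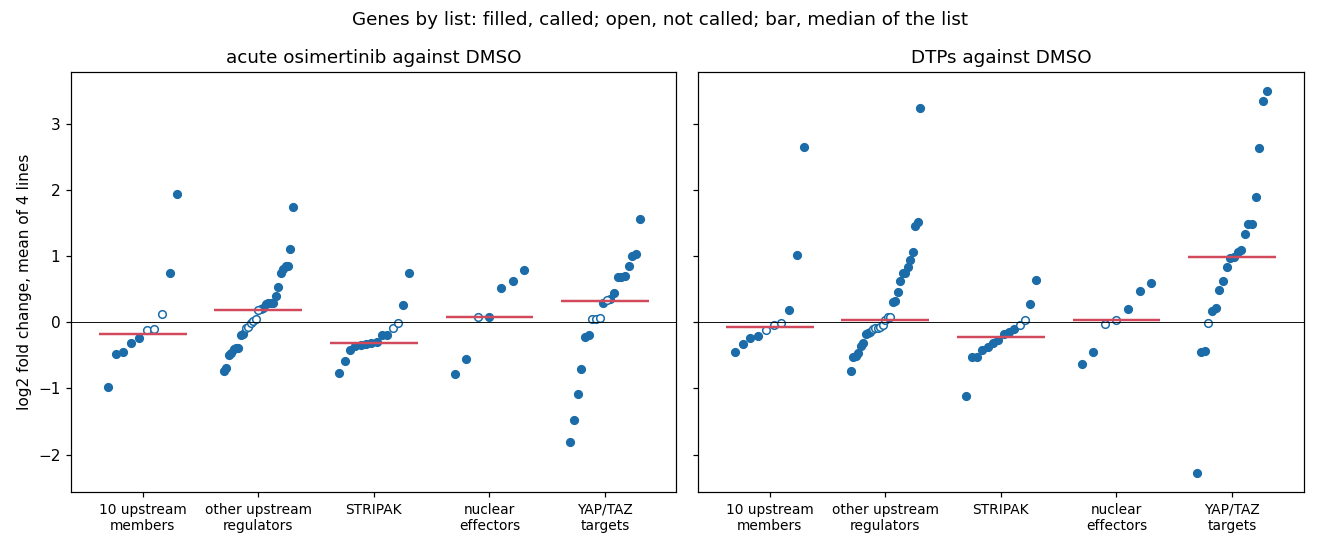
Log2 fold changes averaged over the 4 lines for the 10 members and 4 lists of pathway genes after acute osimertinib and in DTPs, with 1 point a gene, filled where edgeR called it, and a bar at the median of each list. The bar of the YAP and TAZ targets is at 0.32 after 24 h and at 0.98 in DTPs, while that of the 10 members is at -0.17 and -0.08.

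Genes of MAPK output and proliferation are given beside the members as signs of the drug's action. Whether they moved together was not tested. The summed level of 6 genes of MAPK output (DUSP6, SPRY2, SPRY4, ETV4, ETV5 and PHLDA1) was on average 197 TPM under DMSO and 15.4 TPM after 24 h in PC9, 116 and 40.9 TPM in HCC827, 103 and 24.4 TPM in H1975 and 276 and 27.5 TPM in HCC2935. All 6 fell in both arms over the lines, with medians of -3.74 and -2.50, and 5 rose in the long washout against DTPs, although in H1975 their sum was 29.1 TPM in DTPs and 28.9 TPM in the long washout. The 6 proliferation genes MKI67, TOP2A, PCNA, CCNB1, CDK1 and MCM2 also fell in both arms, by medians of -2.04 and -1.62, and all 6 rose over the lines in the long washout against DTPs. By line their sum went from 353 to 690 TPM in PC9 and from 249 to 570.1 TPM in HCC2935, and from 366 to 360.4 TPM in HCC827 and from 392 to 336 TPM in H1975. The part of growth arrest in the values of the members was not tested.

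The genes most alike to each member were sought over the 20 group means of log2 TPM, each less its own line's mean, among 12520 genes with a mean log2 TPM of at least 0. These correlations are a description over points that share libraries and treatments. For NF2 they were CORO1C (r = 0.973) and NCS1 (0.963), for LATS2 ZBTB4 (0.957) and ERBIN (0.956), for AMOT UGCG (0.952) and DISC1 (0.949), and for MOB1A UBE2E3 (0.963) and CETN3 (0.951). For STK4 they were CHPT1 (0.940) and FAR1 (0.932), for MOB1B ANKRD17 (0.946) and SETD7 (0.939), for WWC1 ASCC1 (0.898) and TJP1 (0.888), for LATS1 AXIN1 (0.895) and IER3 (0.894), for STK3 EGFR (0.895) and NCKAP1 (0.885), and for SAV1 SPRY2 (0.885) and PPTC7 (0.871). Among the members, NF2 and STK4 were most alike (r = 0.898), and MOB1A and AMOT ran most opposite to each other (r = -0.771), followed by LATS2 and MOB1A (-0.755). Before centring, the group means of AMOT ran from -4.90 to 2.07 in H1975. They ran from 1.04 to 2.93 in HCC827, 4.61 to 6.79 in PC9 and 4.05 to 5.56 in HCC2935. The correlations of AMOT therefore lean on H1975, where its DMSO level is near the floor of detection.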

How the data were processed

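Gene values of 60 RNA-seq libraries (Illumina TruSeq mRNA kit, paired reads) were used. The authors deposited 2 tables by gene symbol: estimated counts, fractional and not normalized, and log2 TPM with a pseudocount of 0.01. The submitters' processing notes name HISAT2 2.1.0, Salmon 0.8.2 and hg38, and the annotation is not given in the sources used here. Counts were rounded and fitted in 1 edgeR 4.0.16 model (R 4.3.3) of 20 groups, with TMM, filterByExpr and the quasi-likelihood F-test, adjusted over 16583 genes by Benjamini-Hochberg, with calls under 0.05. Contrasts were taken for each line and for the mean of 4 lines. The labels call the replicates biological. Leaving out a library kept the genes and dispersion trend of all 60 libraries. Other alternatives were scaling by RLE or by depth alone, keeping all genes or those with 10 or more counts throughout, limma 3.58.1, DESeq2 1.42.0, a replicate block and a fit of the 2 arms alone. The model was tested on simulated data. Its limit on recovery was not met in PC9 and HCC827 with all fold sizes together, and was then, after this was seen, applied to log2 changes of 1 and 2, where it was met. All 60 pairs of replicates differed by more than counting noise. The named genes were the members, the 2 genes most alike to each, and the 2 highest and 2 lowest called genes of each list in DTPs, of which 1 is not reported here. Loci come from GENCODE 29. Figures were made with matplotlib 3.10.9. Members and lists were chosen with earlier results of these data known.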

Additional observations from a re-analysis of the deposited data

Results flagged for a closer look

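The response to osimertinib differed between the 4 lines for most members, by the edgeR F-test of equal response in the lines, adjusted over all genes. After 24 h the adjusted p was 2.6e-08 for WWC1, 2.08e-07 for NF2, 0.000306 for LATS1, 0.000339 for SAV1, 0.00406 for LATS2, 0.0134 for MOB1B, 0.015 for AMOT and 0.0267 for STK3. WWC1 differed from DMSO by 1.33 in PC9 and by -0.40 to -0.04 in the other lines, and NF2 by -1.81 in PC9, -1.48 in HCC2935, -0.36 in HCC827 and -0.25 in H1975.

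In DTPs the adjusted p was 2.53e-11 for WWC1, 6.15e-10 for AMOT, 4.19e-09 for NF2, 7.33e-08 for SAV1, 3.03e-07 for STK4, 8.85e-06 for LATS1, 0.00145 for STK3, 0.00176 for MOB1B, 0.00228 for MOB1A and 0.0173 for LATS2. NF2 fell in PC9 (-1.45) and rose in HCC827 (0.56), STK3 fell in PC9, HCC827 and H1975 and rose in HCC2935 (0.43), and SAV1 fell most in HCC2935 (-0.98). The gap test for single outlying samples was not run, since it is not made for groups of 3 libraries.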

How the results depend on the processing

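No alternative turned the direction of a call. Of 4925 values of a member in a comparison under another setting, 4705 kept their side of the threshold, 142 lost a call and 78 gained one. Of the 4705, 203 took the other sign while not called in either fit. In DTPs against DMSO over the lines, 4 members were called with at least 10 counts in every library, where AMOT has no value, and 4 with the libraries of the 2 arms alone. In the short washout against DTPs in single lines, 1 was called with at least 10 counts, 1 by DESeq2, 2 with the 2 arms alone, 1 without the 2 H1975 libraries that stand apart and 2 with the replicate block in DTP and short washout libraries of HCC827 and H1975, which also called 2 over the lines. The last pair of settings was chosen after seeing the data. In the long washout against DTPs in single lines, 3 were called by limma on log2 TPM as deposited, 3 by limma on log2(TPM + 1) and 2 with the 2 arms alone, and over the lines 1 with the 2 arms alone. Leaving out 1 library gave 1 to 2 members in the short washout over the lines and 0 to 1 in single lines, and in the long washout 2 to 4 over the lines and 2 to 5 in single lines. The cause was not tested.

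With a replicate block every count stayed at its value or within 1.5 times of it, with 7 members in DTPs over the lines, and 1 call was lost, LATS1 in HCC827 after the long washout against DMSO (0.28, adjusted p = 0.0593). This block spans all arms, over which the numbers did not pair the libraries: of 120 correlations of same-numbered libraries, 6 were over 0.1 (median -0.00339, range -0.313 to 0.407), and in 34 the own number correlated best. Of the 6, 5 were between DTPs and the short washout, in HCC827 for every number and in H1975 for 2 of 3, and the block on these libraries raised the genes called there from 0 to 2 and from 62 to 310. DESeq2 and the 2 arms alone were not run for the tests among lines. Depth limits AMOT in H1975 under DMSO, with at most 5.36 counts.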
